A study of Rattus norvegicus with 9 samples.

Results

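A set of 8 genes whose products are best known outside neurons were followed across pools of severed rat dendrites: 4 vascular genes (Vwf, Esam, Pecam1 and Egfl7) and 4 fibroblast genes (Col1a1, Col1a2, Col3a1 and Lum). Members were all array probe sets that name 1 of these genes and no other in the platform's gene table, which gave 8 of 14217 measured genes and 11 of 31042 probe sets. Vwf, Esam, Pecam1, Col3a1 and Lum had 1 probe set each, Egfl7, Col1a1 and Col1a2 had 2, and 0 probe sets named a member together with another gene. The genes were chosen from earlier results of these arrays, with the high signals of Vwf and Esam and the difference of Col3a1 and Lum between pools of 400 and of 100 dendrites already known. Signal levels, and the pool size differences of Col3a1 and Lum, are therefore given as a description without a test, and counts of pool size tests leave both genes out. The question put to the arrays was whether the members vary together from pool to pool.

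Each of the 9 arrays was hybridised with RNA amplified from 1 pool of 100, 200 or 400 severed dendrites, and each pool size had 3 arrays. The dendrites came from primary hippocampal cultures of Sprague-Dawley rats, prepared at embryonic day 19 and kept for 14 days, and were cut from cells labelled as pyramidal neurons with no treatment in any group. A pool mixes neurites of many cells, and the study states that axons could not be told from dendrites by shape, so that a small share of axonal RNA was present. Dispersed hippocampal cultures are not purified neurons, and the labels give no count of the other cells on the coverslips. Arrays are named here by dendrites per pool and replicate, so that 400-2 is replicate 2 of the pools of 400 dendrites.

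Endothelial cells line blood vessels. They store von Willebrand factor (Vwf), which tethers platelets, and are joined by adhesion molecules of the immunoglobulin family such as Esam and Pecam1 (CD31). Egfl7 is a secreted protein with epidermal growth factor-like domains that endothelial cells lay into the matrix around growing vessels, where it acts on Notch signalling. Fibroblasts, which in the brain lie in the meninges and around vessels, make the fibrillar collagens. Type I collagen is a triple helix of alpha 1 chains (Col1a1) and an alpha 2 chain (Col1a2), type III collagen is built of alpha 1 chains alone (Col3a1), and lumican (Lum) is a small leucine-rich proteoglycan that binds collagen fibrils and sets their spacing.

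All values are deposited log2 signals, in which 1 unit is a doubling of signal. The 9 arrays had medians of 7.46 to 7.53 and correlated with each other at 0.678 to 0.877 (Pearson r over probe sets, 36 pairs). Arrays 100-1 and 400-1 were least like the rest, with mean correlations of 0.777 and 0.749 with the other 8 arrays, against 0.809 to 0.839 for the remaining 7. The signal of a probe set depends on the affinity of its probes, so a percentile below ranks signal among measured genes and is not an amount of RNA. Pyramidal neuron markers had a median percentile of 80.7 (22 genes measured, 4 in the top 5%), led by Neurod2, which encodes a transcription factor of forebrain pyramidal cells, at 99.9. Astrocyte markers had a median percentile of 59.7 (19 genes) and microglia markers 45.7 (18 genes), with 0 genes of either list in the top 5%.

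Vwf, Esam and 1 of the 2 Egfl7 probe sets gave strong and steady signals, and Pecam1 and the other Egfl7 probe set did not. Vwf had the highest signal of the 8 genes, with 13.27, 12.75 and 12.86 in pools of 100 dendrites, 12.88, 12.85 and 12.80 in pools of 200, and 13.13, 12.63 and 12.86 in pools of 400. The pool sizes overlapped throughout, and the SD over the 9 arrays, 0.19, was among the smallest on the platform (1.77th percentile of SD over all probe sets, whose median SD was 0.607). Some other genes of strong signal were as steady, such as Neurod2 (mean 13.60, SD 0.18) and Nrgn (12.18, SD 0.17). Others were not, such as Col19a1 (11.14, SD 1.02). Vwf stood at percentile 99.8 of mean signal and in the top 5% on 9 of 9 arrays. Esam, a junctional adhesion molecule of endothelial cells and platelets, read 11.62, 11.92 and 11.51 in pools of 100, 11.51, 11.98 and 11.59 in pools of 200, and 10.98, 11.69 and 11.68 in pools of 400. It was in the top 5% on 9 of 9 arrays (percentile 98.7), with only 400-1 clearly below the others.

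Egfl7 was read by 2 probe sets that disagreed. The first, 1370402_at, gave 12.04, 11.39 and 11.59 in pools of 100, 11.80, 11.63 and 11.66 in pools of 200, and 11.90, 11.43 and 11.42 in pools of 400, and was in the top 5% of probe sets on 9 of 9 arrays. The other, 1393427_s_at, whose suffix marks probes that can match more than 1 transcript, gave 6.23, 6.60 and 7.09 in pools of 100, 6.20, 6.50 and 6.49 in pools of 200, and 8.43, 5.97 and 6.63 in pools of 400, and was in the top 5% on 0 arrays. The first exceeded the other by 4.97 on average and on each of the 9 arrays. Among 3061 genes with exactly 2 probe sets the median difference was 1.20, and 2.22% differed by more than Egfl7 did. The median of its 2 probe sets placed the gene at percentile 88.3, and its stronger probe set alone at 97.4.

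Pecam1, which holds endothelial cells together and is also found on platelets and leukocytes, had a middling signal. It read 6.93, 7.23 and 8.33 in pools of 100, 8.15, 8.49 and 8.14 in pools of 200, and 8.24, 8.65 and 7.89 in pools of 400 (percentile 64.8), with an SD of 0.57 over the 9 arrays, close to the median of all probe sets. Arrays 100-1 and 100-2 were lowest, and 100-3 lay among the larger pools.

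**Figure D1:**
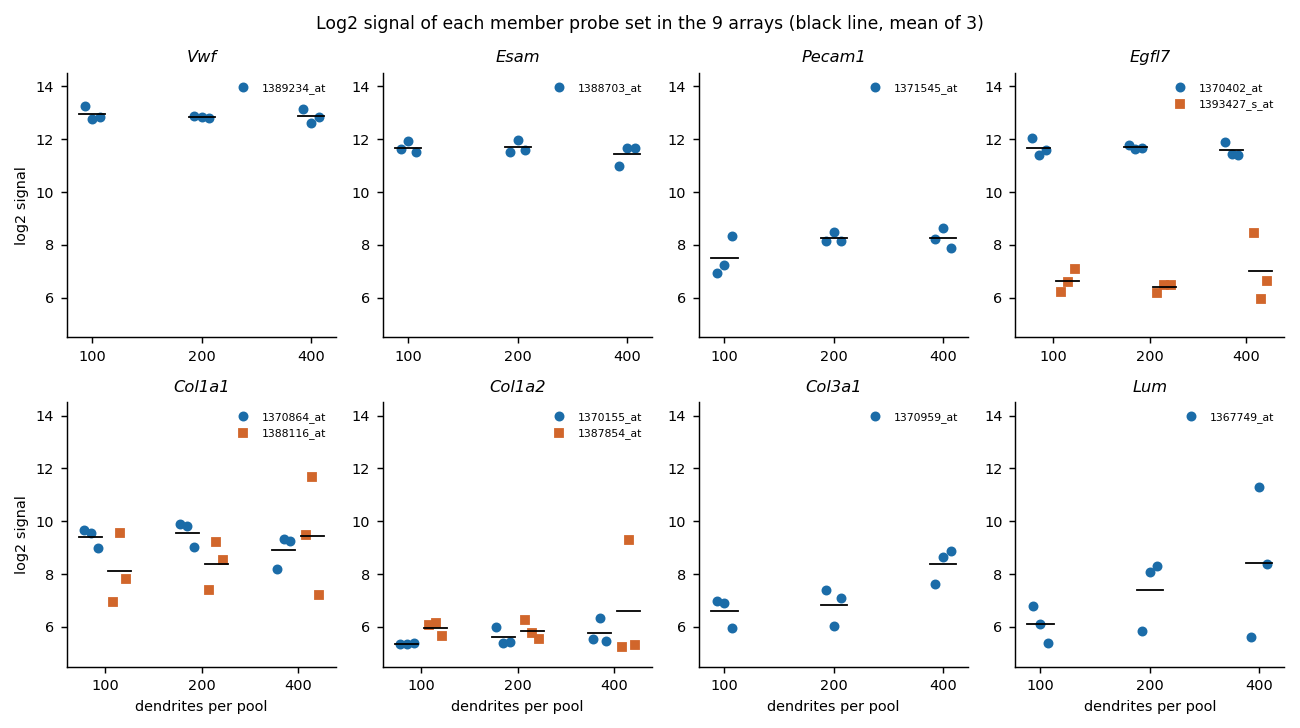
Log2 signal (vertical axis) of the 11 member probe sets by dendrites per pool (horizontal axis), 1 panel per gene, with 1 point per array, a black line at the mean of 3 arrays and a second colour and marker where a gene has 2 probe sets. Vwf, Esam and the stronger Egfl7 probe set lie in a narrow band at every pool size, while Lum spans 5.40 to 11.30.

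Most other genes of vessels did not share the strong signals of Vwf and Esam, which had been chosen for high signal. Egfl7 stood at 88.3 by the median of its probe sets, the measure used for the lists, and was not in the top 5%. Of 46 other endothelial markers 43 were measured, and their median percentile was 35.7, with 0 in the top 5% against 5.00% of all genes. The highest were Flt4, the receptor of lymphatic endothelium for vascular endothelial growth factor C, at 92.4, Aplnr, the apelin receptor, at 90.4, and Plvap, a diaphragm protein of fenestrated capillaries, at 89.0. Genes of the blood-brain barrier, named after their values were seen, spread widely: the tight junction genes Ocln and Cldn5 stood at 83.1 and 26.4, and the transporter genes Slc2a1, Slco1c1, Mfsd2a, Slco1a4 and Abcb1a at 77.6, 43.4, 25.6, 6.60 and 5.87. Among general endothelial genes, also named after their values were seen, Kdr, the main receptor for vascular endothelial growth factor A, stood at 54.4, Emcn (endomucin) at 12.8 and Tek, the angiopoietin receptor, at 7.58. An array value has no true zero, so none of these can be called absent. High ranks were also found among genes best known from other organs, of which 55 of 57 were measured (median percentile 28.5). Of these 3 were in the top 5% (5.45%), namely Cela1 (97.5), Ctrb1 (97.3) and Lhb (96.3).

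Partners of the vascular members ranked in the middle for the junction and platelet genes and higher for the Notch list. Of 15 junction genes 13 were measured, with a median percentile of 45.5 and 0 in the top 5%, and the highest were Cldn12 (93.9), Cldn3 (86.2) and Ocln (83.1), all proteins of tight junctions. Of 14 genes for platelet receptors and other partners of von Willebrand factor 9 were measured (median 40.8, 0 in the top 5%), led by Ppbp, a platelet chemokine, at 92.6 and Gp9, a subunit of the platelet receptor for von Willebrand factor, at 87.6. The 17 genes listed for the Notch pathway of vessels had a median of 81.3, and they include Vegfa, Nrp1, Nrp2 and Egfl8, which are not Notch genes. Their highest member, Hey1, a repressor switched on by Notch, was the only 1 in the top 5% (97.7), and Notch3 and Vegfa stood at 92.1 and 91.6. Notch genes also serve neurons and glia.

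**Figure D2:**
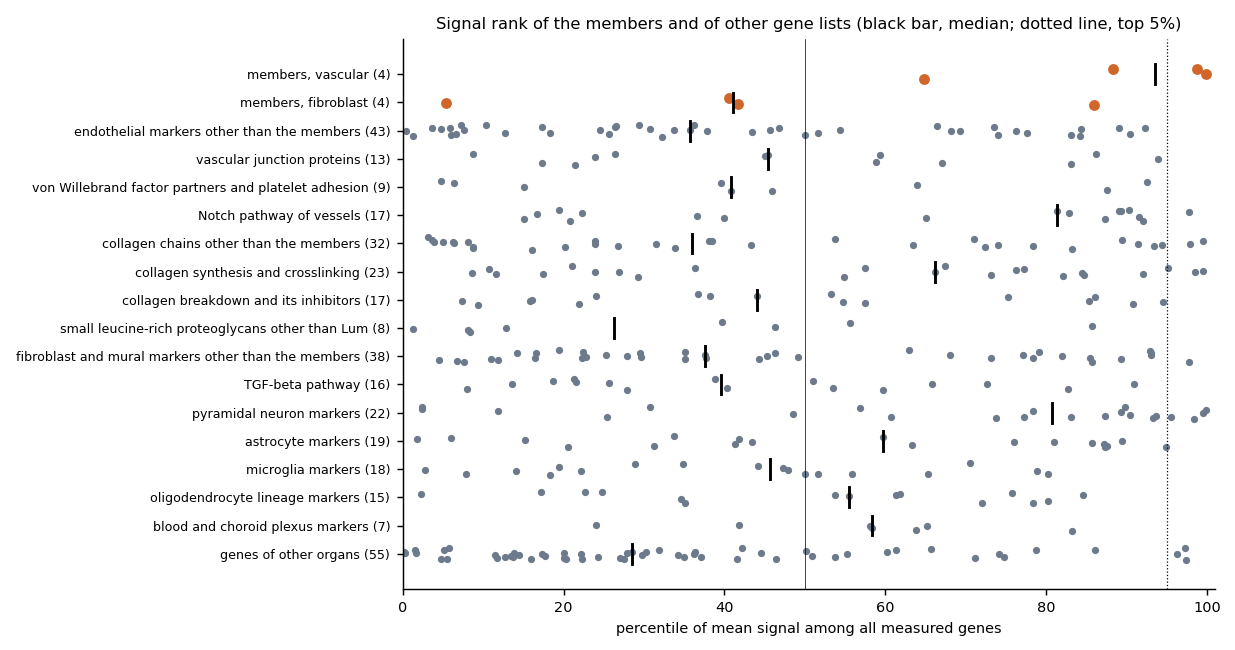
Percentile of mean log2 signal among 14217 genes (horizontal axis) for the members (orange) and for the genes of 16 other lists (grey), with the number measured in brackets, a black bar at each list's median, a solid line at percentile 50 and a dotted line at the top 5%. The vascular members, of which Vwf and Esam were chosen for high signal, lie between 64.8 and 99.8. The median of the other endothelial markers is 35.7, and the fibroblast members spread from 5.36 to 86.0.

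The fibroblast members had lower signals than the vascular ones for the most part, with a median percentile of 41.1 against 93.5, and varied more between pools. The median of their SDs over the 9 arrays was 0.886, against 0.349 for the vascular members and 0.552 for all genes. This contrast is a description, since Col3a1 and Lum were chosen for a difference between pools, which raises an SD. Vwf and Esam were chosen for high signal. The SDs of Col1a1 and Col1a2 were 0.75 and 0.77. Lum had the widest spread, with 6.78, 6.12 and 5.40 in pools of 100 dendrites, 5.84, 8.09 and 8.30 in pools of 200, and 5.61, 11.30 and 8.38 in pools of 400. Its SD over the 9 arrays was 1.90, at percentile 99.9 of all probe sets, and the high arrays were 400-2 and, at some distance, 400-3, 200-3 and 200-2. On 400-2 Lum stood at percentile 97.6 of genes, and on its lowest array at 3.02.

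Col1a2 was near the bottom of the signal range in most pools. Its probe set 1387854_at read 6.05, 6.14 and 5.67 in pools of 100, 6.25, 5.78 and 5.53 in pools of 200, and 5.24, 9.30 and 5.32 in pools of 400. Only 400-2 stood out, 3.05 above the highest of the other 8 arrays. The second probe set, 1370155_at, read 5.36, 5.36 and 5.38 in pools of 100, 6.00, 5.39 and 5.43 in pools of 200, and 5.54, 6.32 and 5.45 in pools of 400, and was also highest on 400-2. The 2 probe sets correlated at r = 0.83 over the arrays but at rho = 0.10 by rank.

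Col1a1 was again read by 2 probe sets that differed. One, 1388116_at, gave 6.93, 9.56 and 7.80 in pools of 100, 7.40, 9.22 and 8.54 in pools of 200, and 9.47, 11.67 and 7.19 in pools of 400, with 400-2 the highest by 2.11. The other, 1370864_at, gave 9.67, 9.57 and 9.00 in pools of 100, 9.88, 9.82 and 9.01 in pools of 200, and 8.18, 9.34 and 9.25 in pools of 400. It showed no peak on 400-2, and the pair correlated at r = -0.20. Disagreement of this kind was common, since the median r of 3061 such pairs on these arrays was 0.02.

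Col3a1 differed from the other fibroblast members in that 400-2 was not its highest array. It read 6.99, 6.90 and 5.95 in pools of 100, 7.41, 6.03 and 7.10 in pools of 200, and 7.62, 8.65 and 8.86 in pools of 400. All 3 pools of 400 dendrites lay above the other 6 pools.

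The promoters of Col1a2 and Lum are shown because these genes had their highest array in common. RefSeq tables held an upstream sequence for 3 of the 8 members (Col1a2, Lum and Egfl7, the last with 2 start sites). Printed are the 250 bases before the annotated start in build GRCr8, on the plus strand, chr4:33518307-33518556 for Col1a2 and chr7:34245456-34245705 for Lum. Capitals mark matches to CCAAT, read on either strand as CCAAT or ATTGG, and to TATAAA, read as TATAAA or TTTATA.
Col1a2: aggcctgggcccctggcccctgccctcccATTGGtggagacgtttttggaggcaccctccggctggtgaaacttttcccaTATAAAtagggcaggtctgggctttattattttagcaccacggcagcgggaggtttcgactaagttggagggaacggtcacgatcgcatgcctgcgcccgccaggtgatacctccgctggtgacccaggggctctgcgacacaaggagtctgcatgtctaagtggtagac
Lum: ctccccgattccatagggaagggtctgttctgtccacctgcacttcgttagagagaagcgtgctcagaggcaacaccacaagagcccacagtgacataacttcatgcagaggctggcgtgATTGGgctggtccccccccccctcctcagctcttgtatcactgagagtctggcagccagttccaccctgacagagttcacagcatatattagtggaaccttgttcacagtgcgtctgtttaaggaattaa
Each window held 1 match to the CCAAT letters on the reverse strand, with its first base 221 bases before the start in Col1a2 and 130 bases before it in Lum, and Col1a2 also held TATAAA, 170 bases before the start. Of 33469 rat promoter windows of this length 34.0% held CCAAT and 12.9% held TATAAA on either strand. A match of letters is no evidence of a bound factor.

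Array 400-2 was set against the other 8 arrays after its values were seen. On it 3 of the 11 member probe sets, those of Lum, Col1a2 (1387854_at) and Col1a1 (1388116_at), exceeded the highest of the other arrays by more than 2 log2 units, as 29 of all 31042 probe sets did (0.0934%). On the other arrays between 9 and 66 probe sets stood out in this way, none of them a member. Lum was chosen for its difference between pools of 400 and 100 dendrites, 2.33 with 400-2 and 0.90 without it. Its place in this count is therefore a description. The rest of the 29 included Mgp, the matrix Gla protein, at 13.02 on 400-2 against at most 10.45 elsewhere, Postn (periostin), a matrix protein of fibroblasts, at 9.83 against 7.64, and 1 of the 4 probe sets of Ogn (osteoglycin), a relative of lumican, at 9.79 against 7.71. The gene value of Ogn was not raised there (5.26 on 400-2, with its highest array 200-1), and 0 of the 8 other proteoglycans of the lumican family had their highest gene value on 400-2. They also included genes that are not particular to fibroblasts, such as Ifitm3, an interferon-induced membrane protein, at 9.66 against 6.31, and Cd63, a lysosomal tetraspanin, at 14.19 against 12.08. For Gja1 (connexin 43), a gap junction protein of astrocytes and other cells, 1 of 3 probe sets stood out, at 13.62 against 11.51, while its gene value was 9.31 on 400-2 and 9.70 on its highest array, 200-1. No vascular member peaked there apart from Pecam1, whose 8.65 was 0.16 above its next array, and Vwf was at its lowest (12.63).

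**Figure D3:**
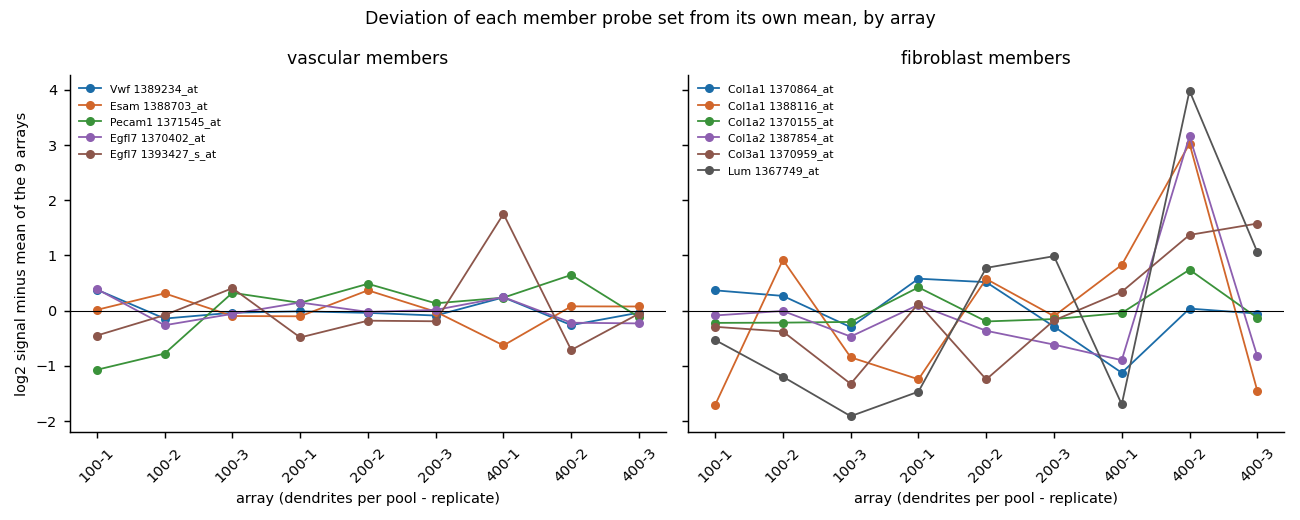
Log2 signal minus the probe set's own mean over the 9 arrays (vertical axis) by array (horizontal axis, dendrites per pool and replicate), with 1 line per probe set, for the vascular members on the left and the fibroblast members on the right. Lum, Col1a2 1387854_at and Col1a1 1388116_at share their peak on 400-2, at 11.30, 9.30 and 11.67, while of the vascular probe sets only that of Pecam1 is highest there, by 0.16.

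Other fibroblast genes did not follow as a group. Of the 4 fibroblast members 3 had their highest gene value on 400-2, against 5 of the 38 other fibroblast and mural markers measured (13.2%, of 39 in the list) and 10.4% of all genes. Lum, 1 of these 3 members, was chosen for a difference to which its value on 400-2 belongs. The mean of the 38 markers on that array, 7.72, lay within the range of 7.40 to 7.75 over the 9 arrays. The 5 markers highest on 400-2, named after their values were seen, were Vim (10.78), Postn (9.83), Pdgfra (9.68), Serpinf1 (8.66) and Fn1 (7.81). Postn, Pdgfra and Serpinf1 averaged higher in pools of 400 than of 100 dendrites, by 1.19, 0.38 and 0.28. Fn1 and Vim differed by -0.24 and -0.82. Vim is an intermediate filament protein that also stands in the astrocyte list. It averaged 8.67 ± 1.85 over the pools of 400 dendrites against 9.49 ± 0.76 over those of 100 (SD, n = 3 each). Astrocyte markers had 6 of 19 genes (31.6%) highest on 400-2 and a mean of 8.32 on that array, within their range of 7.27 to 8.37. Fabp7, a fatty acid binding protein of radial glia and astrocytes, reached 11.99 on 400-2. It averaged 9.16 ± 2.50 over the pools of 400 dendrites against 11.27 ± 0.49 over those of 100. The part of other cells in the peak of Lum, Col1a1 and Col1a2 was not tested, and in pooled material more cells of a type and more RNA per cell cannot be told apart.

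Genes that build, process and break down collagen were read from lists. The 32 other collagen chains measured of 34 had a median percentile of 35.9, with 2 in the top 5%: Col22a1, of muscle-tendon junctions, at 99.5 and Col19a1, which in mouse is made by some neurons, at 97.9. The 23 genes of collagen synthesis and crosslinking measured of 29 had a median of 66.1 and 3 in the top 5%, namely the lysyl oxidases Loxl1 (99.5) and Loxl3 (95.2) and Tram2 (98.5), a translocon protein used in collagen synthesis. Collagen breakdown genes had a median of 44.0 (17 of 18 measured), led by Mmp14, a membrane-bound collagenase, at 94.6. The 8 measured proteoglycans of the lumican family had the lowest median of these lists, 26.2, and their highest were Bgn (biglycan) at 85.8, Prelp at 55.6 and Dcn (decorin) at 46.2. Among other fibroblast markers the median was 37.6 and 1 gene, Mfap5, a microfibril protein, was in the top 5% (97.8). The 16 measured genes of the TGF-beta pathway, which drives collagen production, had a median of 39.6. By mean over a list, collagen synthesis (8.29) and the TGF-beta pathway (7.70) were highest on 400-2. For collagen synthesis 100-1 was almost as high (8.27), and the lowest array was at 7.92. For the TGF-beta pathway 100-3 was at 7.55 and the lowest array at 7.14. The other collagen chains, collagen breakdown genes and lumican family had their highest mean on other arrays.

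Pool sizes were compared with limma across all 31042 probe sets. For pools of 400 against 100 dendrites 0 probe sets passed an adjusted p of 0.05 (0%), 687 had an unadjusted p under 0.05 (2.21%), and in 1916 the 2 groups of 3 arrays did not overlap (6.17%). Under the methods' t-test 0 passed after adjustment and 800 were under 0.05 before it. Of the 9 member probe sets of the 6 genes not chosen for this contrast, 0 passed, 0 had an unadjusted p under 0.05 and 1, Col1a2 1370155_at, did not overlap, being higher in pools of 400.

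Col3a1 averaged 8.38 ± 0.66 with 400 dendrites and 6.61 ± 0.57 with 100 (SD, n = 3 each), a difference of 1.76. The difference was 1.43 to 2.14 when any 1 of these 6 arrays was left out. Lum averaged 8.43 ± 2.84 with 400 dendrites and 6.10 ± 0.69 with 100, a difference of 2.33 that became 0.90 without 400-2. The difference of Col1a1 1388116_at was likewise 1.35 with all arrays and 0.23 without 400-2, and that of Col1a2 1387854_at was 0.67 and turned to -0.67. For the other Col1a2 probe set, 1370155_at, it was 0.40 with all arrays and 0.13 without 400-2.

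Of the member probe sets, those of Vwf and Esam and the stronger one of Egfl7 had the smallest differences. Vwf averaged 12.87 ± 0.25 with 400 dendrites and 12.96 ± 0.28 with 100 (difference -0.09, 95% interval -0.86 to 0.69, adjusted p = 0.99979 by limma). The intervals were of like width for Esam (-0.24, -1.06 to 0.59) and for Egfl7 1370402_at (-0.09, -0.89 to 0.71), and a difference within these intervals was not detectable on these arrays. Pecam1 averaged 8.26 ± 0.38 with 400 dendrites and 7.50 ± 0.74 with 100, a difference of 0.76 (-0.20 to 1.73) that did not pass. Over the 9 probe sets, Col3a1 and Lum left out, 5 were higher and 4 lower with 400 dendrites. The median of the 9 differences was 0.37 with all arrays and 0.04 without 400-2, and that over all probe sets was -0.0014.

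The other contrasts share arrays with the first, so that Col3a1 and Lum were again left out of the counts. For pools of 200 against 100 dendrites limma called 0 probe sets (0%), 891 were under 0.05 before adjustment (2.87%) and 2298 did not overlap (7.4%), and the methods' t-test called 0 (1053 before adjustment). Of the 9 member probe sets 0 were called, 0 had an unadjusted p under 0.05 and 1, Col1a2 1370155_at, did not overlap, with arrays at 6.00, 5.39 and 5.43 for 200 dendrites against 5.36, 5.36 and 5.38 for 100. For pools of 400 against 200 dendrites limma called 0 (0%), with 634 under 0.05 before adjustment (2.04%) and 2039 without overlap (6.57%), and the methods' t-test called 0 (872 before adjustment). Of the 9 member probe sets 0 were called, 0 had an unadjusted p under 0.05 and 0 did not overlap. Col3a1, as a description, averaged 8.38 ± 0.66 with 400 dendrites and 6.85 ± 0.72 with 200, the 400-dendrite arrays being those it was chosen on.

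**Figure D4:**
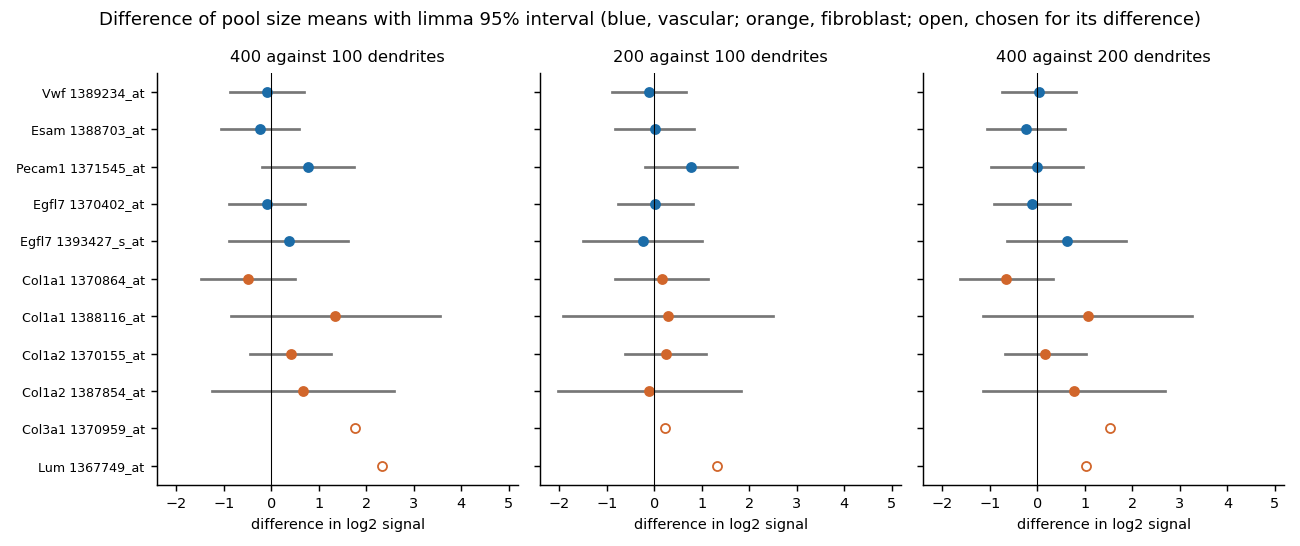
Difference in mean log2 signal between pool sizes (horizontal axis; points) with its 95% limma interval (lines) for each member probe set (vertical axis), in 3 panels for the 3 contrasts. Vascular probe sets are blue and fibroblast probe sets orange, the open points of Col3a1 and Lum, chosen for their difference, carry no interval, and the intervals of the other 9 probe sets include 0 in all panels.

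No list held a probe set past the adjusted limma threshold, in any of the 16 lists and 3 contrasts. Of 67 probe sets for the other endothelial markers 0 had an unadjusted p under 0.05 for 400 against 100 dendrites, against 2.21% of all probe sets. Of their 43 genes 24 were higher and 19 lower in pools of 400. Of 54 probe sets for the other fibroblast and mural markers 0 had an unadjusted p under 0.05, with 16 genes higher and 22 lower. The largest differences in these lists were those of Ecscr, an endothelial surface protein, at 7.46 ± 1.77 with 400 dendrites and 6.59 ± 1.11 with 100, and of Postn, at 7.92 ± 1.78 with 400 and 6.73 ± 0.46 with 100, and in both genes the SD over the larger pools exceeded the difference. Ctsk (cathepsin K), a collagen-degrading protease, was named as 1 of the 2 genes of largest difference in the collagen breakdown list. It had tighter groups, with 7.05 ± 0.10 for 400 dendrites and 6.11 ± 0.20 for 100 (SD, n = 3 each). Mmp15, the other of the 2, was lower with 400 dendrites (6.96 ± 0.89 against 7.96 ± 0.59). The 26 probe sets of that list held 1 with an unadjusted p under 0.05, against 2.21% of all probe sets, a count that does not name the gene.

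Covariation of the members was measured over the 9 arrays for all 28 pairs of genes, each gene being the median of its probe sets, with exact two-sided permutation tests. After Benjamini-Hochberg adjustment 0 pairs passed 0.05 by Pearson r (smallest adjusted p = 0.378) or by Spearman rho (smallest adjusted p = 0.482), and 2 pairs had an unadjusted exact p under 0.05 by Pearson r. The pairs were tested 1 by 1, and a common movement of all 8 genes was not tested as such. Of the 16 pairs of a vascular and a fibroblast gene 7 had a positive r and the median was -0.17, against a median of -0.00083 over all 101054436 pairs of genes, 10.3% of which had r above 0.5.

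Among the fibroblast members all 6 pairs had a positive r, with a median of 0.58 and a range of 0.15 to 0.76. Of all pairs of genes 49.9% had a positive r. Every fibroblast pair but that of Col1a1 and Col1a2 holds Col3a1 or Lum, which were chosen for a pool size difference. The count and the median are therefore a description. The highest r was that of the 2 chains of type I collagen, Col1a1 and Col1a2 (r = 0.76, exact permutation p = 0.0389, adjusted p = 0.378, rho = 0.52 with exact p = 0.162). Without its 2 farthest arrays, 100-2 and 400-2, r was 0.00, and within pools of 100, 200 and 400 dendrites it was 0.59, -0.50 and 0.97 on 3 arrays each. Col1a2 and Lum followed at r = 0.68 (exact p = 0.0905, rho = 0.08), and Col1a1 and Lum at r = 0.61 (exact p = 0.0822, rho = 0.17). These values rested on 400-2, since without it the median r of the 6 pairs was -0.07 and Col1a2 and Lum were at r = -0.37. With the mean of each pool size removed the median was 0.46. Col3a1 and Lum, both chosen for higher signals in pools of 400, were at r = 0.55 with all arrays and 0.27 without 400-2. When each gene was its probe set of highest mean, Col1a1 and Col1a2 were at r = 0.25 (exact permutation p = 0.465, rho = 0.70). In that setting Col1a1 and Lum were at r = 0.16 and Col1a2 and Lum at r = 0.70.

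Among the vascular members 2 of 6 pairs had a positive r and the median was -0.34. Esam and Egfl7 moved in opposite directions (r = -0.81, exact permutation p = 0.0275, adjusted p = 0.378, rho = -0.58 with exact p = 0.108), and r was -0.40 without the 2 arrays farthest from the median of Esam, 200-2 and 400-1. Vwf and Egfl7 were at r = 0.61 (exact p = 0.113, rho = 0.63). With each gene taken as its probe set of highest mean, that pair was at r = 0.88 (exact permutation p = 0.00096, adjusted p = 0.0269, rho = 0.73) and was the only 1 of the 28 to pass. With these probe sets r was 0.99, 0.63 and 0.88 within pools of 100, 200 and 400 dendrites, whereas with the median of probe sets it was 0.09, -0.87 and 0.97. For the strongest probe sets it lay between 0.79 and 0.93 when any 1 array was left out. Both probe sets were highest on 100-1 and 400-1, the arrays least like the rest, and over the other 7 arrays r was 0.59 (exact p = 0.154, adjusted p = 0.852).

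**Figure D5:**
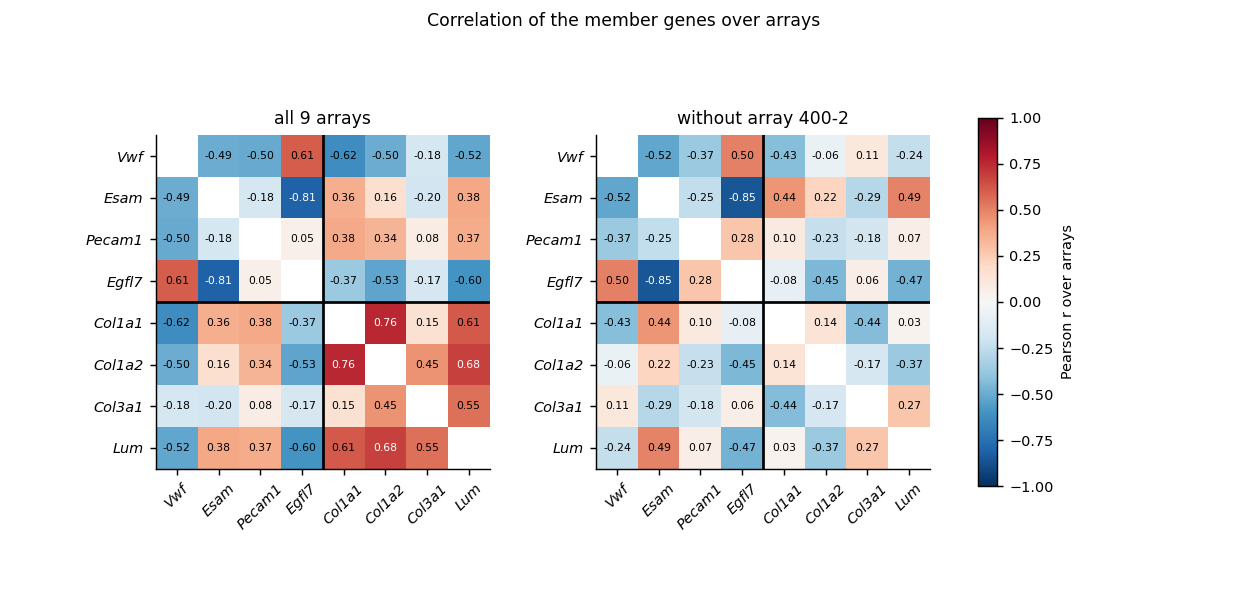
Pearson r over arrays for each pair of the 8 member genes (both axes; red, positive; blue, negative), on the left with all 9 arrays and on the right without array 400-2, with black lines between vascular and fibroblast genes. The 6 fibroblast pairs are all positive on the left, from 0.15 to 0.76, and their median is -0.07 on the right.

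Whether the members moved with how typical an array was among the 9 was asked after the values were seen. Against the mean correlation of an array with the other 8 arrays, Vwf was at r = -0.79 (exact permutation p = 0.0226, rho = -0.50), Egfl7 1370402_at at r = -0.79 (exact p = 0.00899, rho = -0.67) and Esam at r = 0.78 (exact p = 0.0196, rho = 0.62), and after adjustment over the 11 probe sets each had p = 0.0827 and 0 passed 0.05. Without 100-1 and 400-1, the 2 farthest arrays, the values were 0.09, -0.54 and 0.52. None of the 6 fibroblast probe sets had an exact p under 0.05.

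Measures of RNA quality and of other cell types were set beside each member in 32 relations, of which 0 passed after adjustment (smallest adjusted p = 0.396) and 2 had an unadjusted exact p under 0.05. Col1a1 followed the difference between the 3 prime and 5 prime probe sets for beta-actin, a measure of how far RNA is shortened (r = 0.78, exact permutation p = 0.0124, adjusted p = 0.396, rho = 0.68, r = 0.63 without the 2 farthest arrays and 0.84 with pool means removed), and 400-2 had the largest such difference, 2.41, against -0.43 to 1.63 on the other arrays. For GAPDH the difference on 400-2 was 2.42, within the range of 0.843 to 2.99 over the arrays. Col1a2 followed the mean of the astrocyte markers (r = 0.58, exact p = 0.0463, adjusted p = 0.740, rho = 0.68, r = 0.79 without the 2 farthest arrays and 0.78 with pool means removed). Over the 8 arrays other than 100-3 this was the 1 relation to pass (r = 0.77, exact permutation p = 0.0004, adjusted p = 0.0127). The 2 farthest arrays by astrocyte mean were 100-3 and 200-3, so 400-2 was kept in the r of 0.79 and of 0.77. Col1a2 was at 7.81 on 400-2 and at 5.38 to 6.13 on the other arrays. Without 400-2 the number of relations to pass was 0. The part of RNA quality and of other cells in these values was not tested.

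The genes whose pattern over the 9 arrays was most like each member's, by Pearson r of gene values, were searched among all 14217 genes and are given as a description. For Vwf they were Coro1a, Amy2a3, Ppp1r15b, LOC102555063 and Fosb (r = 0.98 to 0.94), all highest on 100-1. For Esam they were Nfkbid, Spring1, Fat1, Dcaf12l1 and Pfdn5 (0.96 to 0.94), and for Pecam1 Zmat2, Actn4, Prkar1a, Sf3b6 and Trappc13 (0.94 to 0.90). The nearest to Egfl7 were Atp6v1b1, C20h22orf15, Rab17, Dcxr and Gria1 (0.97 to 0.95), all highest on 400-1. For Col1a1 they were Sp1, Tubb2b, Tubb2a, Sapcd2 and Rhoa (0.94 to 0.90), for Col1a2 Tmbim1, Mapk15, Kdf1, Serf1 and Npas3 (0.96 to 0.93), and for Lum Timm9, Agmat, Slc25a53, Fam83d and Timm10 (0.95 to 0.92), and all 15 were highest on 400-2. For Col3a1 they were Mrpl43, Nasp, Traf3, Syt9 and Bod1 (0.93 to 0.90). No member appeared among the 5 nearest genes of another, and no other endothelial or fibroblast marker did.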

How the data were processed

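The authors deposited 1 log2 signal per probe set and array, made with RMA 2.0 from Affymetrix rat expression arrays. The RNA had been amplified linearly, in several rounds, before hybridisation. RMA removes background, equalises arrays and combines the probes of a set, so array totals carry no depth, and 9 arrays limit the precision. Median centring and scaling, which the methods also describe, are not seen in the files. Of 31099 probe sets 57 controls were set aside and 31042 tested without a filter; 20826 named 1 gene, 436 several and 9780 none, and 20758 symbols were updated through Entrez gene IDs. Each of 14217 genes took the median over its probe sets.

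Pool sizes were compared with limma 3.58.1 (R 4.3.3) in 1 model of all 9 arrays, without a replicate block, two-sided, with Benjamini-Hochberg adjustment over all probe sets and a threshold of 0.05. Correlations used exact permutation over all 362880 pairings of 9 arrays (Python 3.11.15, numpy 2.4.6, scipy 1.17.1, pandas 2.3.3; figures, matplotlib 3.10.9). Both steps were tested on simulated data. The labels call the arrays biological replicates without naming cultures or animals, and give no batch or scan date. The members, lists and tests were chosen with earlier results of these data known. Named were all members, the 5 genes most correlated with each, and per list the 3 of highest percentile and the 2 of largest difference between 400 and 100 dendrites, from which the text takes examples; other genes are said to be chosen after their values were seen. No p was adjusted over a list alone. Promoter sequences are from RefSeq (GRCr8); the files name no genome build, and mouse arrays were not used here.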

Additional observations from a re-analysis of the deposited data

Results flagged for a closer look

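Values that stood apart from the other arrays were looked for over all 9 arrays of each member probe set, by the gap to the nearest array as a share of the whole range. Of the 11 member probe sets 4 had such a value, as did 3243 of 31042 probe sets (10.4%), where chance alone gives about 1 in 20 sets. Lum was above its other arrays on 400-2 (11.30) by a share of 0.495, just past the cut-off, and Col1a2 1387854_at (9.30) by 0.753. Lum was chosen for a difference to which its value on 400-2 belongs. On 400-1 Egfl7 1393427_s_at stood apart upwards (8.43) and Esam downwards (10.98), on the array least like the others. High values of this kind were most frequent on 100-1 (445 probe sets) and 400-1 (264), and 125 were on 400-2.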

How the results depend on the processing

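The number of probe sets differing between pool sizes was 0 in each of the 3 contrasts under renewed quantile normalization, a filter on dim probe sets, centred and scaled arrays, trended robust variances, the methods' t-test, both gene summaries, array weights (an alternative chosen after seeing the data) and without any 1 array. For 400 against 100 dendrites the count at an unadjusted p under 0.05 was 687, 642 to 1097 when 1 array was left out and 1565 with array weights. With the replicate number as a block it was 725, again with 0 calls. Same-numbered pools of different size did not deviate together (r = -0.20 to 0.09 for 9 pairs, -0.19 to 0.22 for 18 pairs of different number). This check showed no pairing by number, but it cannot exclude shared cultures or days, which the labels do not name. The block turned no call here or in the correlations, where 0 of 28 pairs passed.

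The number of correlated member pairs was 0 under 5 other settings and without any 1 array, but 1 (Vwf and Egfl7) when each gene was its strongest probe set, which was 0 again without 100-1 and 400-1 (chosen after seeing the data). The number of relations with array measures was 0 to 1 when 1 array was left out, the 1 being Col1a2 with astrocyte markers without 100-3. Vwf and Esam were in the top 5% throughout, and Egfl7 joined them with its stronger probe set. The median r of the fibroblast pairs, 0.58, was 0.33 with the strongest probe sets, 0.13 by ranks and -0.07 without 400-2. No detection calls were used here, so which probe sets lie above background is not known, and 3 arrays a group give a median 95% half-width of 1.08 log2 units.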
